A study of Mus musculus with 31 samples.

Results

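This report describes 8 genes measured by mRNA sequencing in mouse tumors after radiation therapy (RT): Gdf15 and 7 genes of the integrated stress response or its surroundings, Atf4, Ddit3, Atf3, Trib3, Chac1, Asns and Sphk1. They are 8 of the 46072 gene identifiers in the deposited tables and were taken by gene name. They were selected on measured values, because Gdf15 showed the largest increase of the 8 in RM-9 tumors at 12 h after RT. For that reason the RM-9 values at 12 h, and the RM-9 values of Gdf15 at every time, are given as a description with no test.

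The samples were whole tumors from wild-type male C57BL/6J mice (C57BL/6 in the labels), bought at 6 to 7 weeks of age and bearing subcutaneous grafts on the right hind leg of RM-9 prostate cancer cells or MC-38 colon cancer cells (RM9 and MC38 in the sample labels). Each of the 31 libraries came from a separate mouse. The RT groups received a single dose of 15 Gy at a tumor diameter of about 8 mm and were collected 3 h, 12 h or 24 h later, with 4 mice in each group except 3 in RM-9 at 24 h. The 4 control mice of each model received no treatment and carry a time label of 3 h, so at 12 h and 24 h an effect of RT and an effect of time cannot be told apart, and the 3 comparisons in a model share these controls. Both models are single cell lines and the labels call both adenocarcinoma. The sum of 6 epithelial markers was 669 to 1526 TPM, a transcript abundance scaled for gene length and library depth, in the RM-9 libraries but only 0.644 to 1.56 TPM in the MC-38 libraries, where Epcam and Krt19 were at 0 in every tumor collected 24 h after RT.

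The integrated stress response is the arm of cell signaling in which kinases phosphorylate the initiation factor eIF2. Most translation then falls while that of a few mRNAs, among them Atf4, rises. ATF4 is a transcription factor that turns on genes of amino acid supply, such as Asns (asparagine synthetase), and of feedback and cell death, such as Ddit3 (which encodes CHOP), Atf3, Trib3 and Chac1. GDF15 is a secreted stress cytokine that acts on the brainstem receptor GFRAL with RET and is known for lowering food intake. Gdf15 is a known target of ATF4, of CHOP and also of p53. Sphk1 encodes sphingosine kinase 1, which makes the lipid mediator sphingosine 1-phosphate. Since ATF4 protein is controlled at translation, Atf4 mRNA is not a measure of it.

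The start regions of the members are shown because 4 of the 8 genes carry the core of the C/EBP-ATF response element there, the DNA element that ATF4 dimers recognize, and Gdf15 does not. Each sequence is a RefSeq window of 300 bases on GRCm38.p6, written 5′ to 3′ on the strand of the gene, with 250 bases before the annotated start. Capitals mark the core TGATGNAA read on either strand.
Asns (chr6:7693160-7693459, minus strand): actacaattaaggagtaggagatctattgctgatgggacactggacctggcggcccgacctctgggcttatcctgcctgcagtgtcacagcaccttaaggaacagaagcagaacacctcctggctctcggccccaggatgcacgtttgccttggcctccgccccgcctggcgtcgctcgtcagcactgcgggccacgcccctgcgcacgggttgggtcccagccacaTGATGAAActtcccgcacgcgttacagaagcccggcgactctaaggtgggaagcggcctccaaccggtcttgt
Chac1 (chr2:119350992-119351291, plus strand): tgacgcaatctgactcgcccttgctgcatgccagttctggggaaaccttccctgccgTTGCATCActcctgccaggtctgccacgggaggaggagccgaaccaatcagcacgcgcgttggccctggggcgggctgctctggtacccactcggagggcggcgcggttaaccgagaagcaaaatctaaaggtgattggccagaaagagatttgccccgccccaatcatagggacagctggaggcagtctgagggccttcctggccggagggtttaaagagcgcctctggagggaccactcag
Trib3 (chr2:152344011-152344310, minus strand): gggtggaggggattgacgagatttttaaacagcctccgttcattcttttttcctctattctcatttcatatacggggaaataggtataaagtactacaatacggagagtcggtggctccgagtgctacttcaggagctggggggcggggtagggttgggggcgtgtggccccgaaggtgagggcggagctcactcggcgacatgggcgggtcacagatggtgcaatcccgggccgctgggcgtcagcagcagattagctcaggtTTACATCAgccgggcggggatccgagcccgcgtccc
Atf3 (chr1:191183284-191183583, minus strand): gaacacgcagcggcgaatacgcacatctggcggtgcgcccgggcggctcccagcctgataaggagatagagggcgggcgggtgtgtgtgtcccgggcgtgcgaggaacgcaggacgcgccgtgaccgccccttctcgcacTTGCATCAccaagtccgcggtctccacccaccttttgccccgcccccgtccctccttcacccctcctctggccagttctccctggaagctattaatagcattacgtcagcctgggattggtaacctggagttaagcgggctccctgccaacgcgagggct
Gdf15 (chr8:70632407-70632706, minus strand): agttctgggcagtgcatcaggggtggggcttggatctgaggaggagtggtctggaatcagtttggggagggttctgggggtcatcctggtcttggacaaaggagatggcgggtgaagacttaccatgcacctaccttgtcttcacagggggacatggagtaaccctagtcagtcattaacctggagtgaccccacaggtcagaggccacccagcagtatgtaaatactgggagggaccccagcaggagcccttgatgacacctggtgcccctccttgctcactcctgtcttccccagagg
The core lay at bases 228 to 235 of the Asns window, 58 to 65 of the Chac1 window, 265 to 272 of the Trib3 window and 141 to 148 of the Atf3 window. All 8 symbols matched, with 13 windows in all, and 4 of the 13 held the core against 3.97% of 32851 mouse windows of this length. None of the 13 held the cAMP response element TGACGTCA (1.79% of all windows), the ER stress response element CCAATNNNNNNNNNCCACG (0.119%) or the p53 decamer site (8.36%), each searched on both strands. No other searched motif overlaps these sites. A match describes letters only, and a window without one says nothing about the factor.

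Depth was about 21400000 to 29400000 reads per library. TPM includes mitochondrially encoded genes, which made up 47.3% to 57.2% of TPM in RM-9 and 22.5% to 40.6% in MC-38, the highest being in an MC-38 control. These shares moved with the groups: they were 52.4% to 57.2% in RM-9 at 12 h against 47.8% to 50.5% in its controls, and 23.0% to 25.9% in MC-38 at 12 h against 25.7% to 40.6%. The median change over all genes tested, on log2(TPM + 0.5), differed from 0 and was 0.06 at 3 h, -0.19 at 12 h and -0.04 at 24 h for the RM-9 model. For MC-38 it was 0.19, 0.33 and 0.22, in order of time. Changes are to be read against these medians. The same changes were also computed after median-ratio scaling, which divides each library by its median ratio to the average library and brings these medians to between -0.02 and 0.01.

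Gdf15 (chromosome 8, 70629393 to 70632456) was higher after RT than in controls at every time in RM-9 tumors, at a low level throughout. The 4 RM-9 controls had 0.556, 0.515, 0.933 and 0.505 TPM, and the irradiated tumors had 1.31, 1.97, 1.72 and 1.91 TPM at 3 h. At 12 h the values were 3.18, 1.08, 1.98 and 1.31 TPM, and at 24 h they were 1.75, 2.01 and 1.29 TPM. Every irradiated tumor lay above every control, with the mouse of 3.18 TPM well above the rest at 12 h. The mean went from 0.628 ± 0.205 TPM (SD, n = 4) in controls to 1.73 ± 0.301 (n = 4) at 3 h, 1.89 ± 0.944 (n = 4) at 12 h and 1.68 ± 0.366 (n = 3) at 24 h, ratios of 2.75, 3.01 and 2.68. On log2(TPM + 0.5) the change was 0.99, 1.02 and 0.96, which the added 0.5 makes smaller than the ratio of means. The 3 changes lay close together, and a difference between the times was not tested. Read coverage behind these values was thin, at 0.885 to 1.62 reads per base in the controls. Because the samples are whole tumors, fewer cells of a type and less RNA per cell cannot be told apart here or below.

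In MC-38 tumors Gdf15 was already high before RT, and no change passed the test. The controls had 13.7, 25.7, 28.9 and 9.84 TPM, and the irradiated tumors had 15.6, 19.6, 29.2 and 26.6 TPM at 3 h. They had 23.1, 28.9, 24.2 and 31.2 TPM at 12 h and 22.0, 26.4, 30.5 and 30.2 TPM at 24 h. The controls split into a low and a high pair, and the irradiated tumors reached no further than slightly above the high pair. The log2 change was 0.30 at 3 h (95% interval -0.29 to 0.89, adjusted p = 0.514), 0.57 at 12 h (-0.02 to 1.16, adjusted p = 0.116) and 0.59 at 24 h (-0.0019 to 1.18, adjusted p = 0.165; limma with Benjamini-Hochberg adjustment over all genes, as for every adjusted p here). Without control mouse 3, which had the highest control value, the change passed at 12 h (0.79, adjusted p = 0.028) and at 24 h (0.82, adjusted p = 0.042). Leaving out the highest control raises the change. Over all single left-out mice it ran from 0.29 to 0.79 at 12 h and from 0.31 to 0.82 at 24 h. After median-ratio scaling the change was 0.23 at 12 h (adjusted p = 0.514) and 0.33 at 24 h (adjusted p = 0.372). The all-gene medians on TPM were 0.33 and 0.22.

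**Figure D1:**
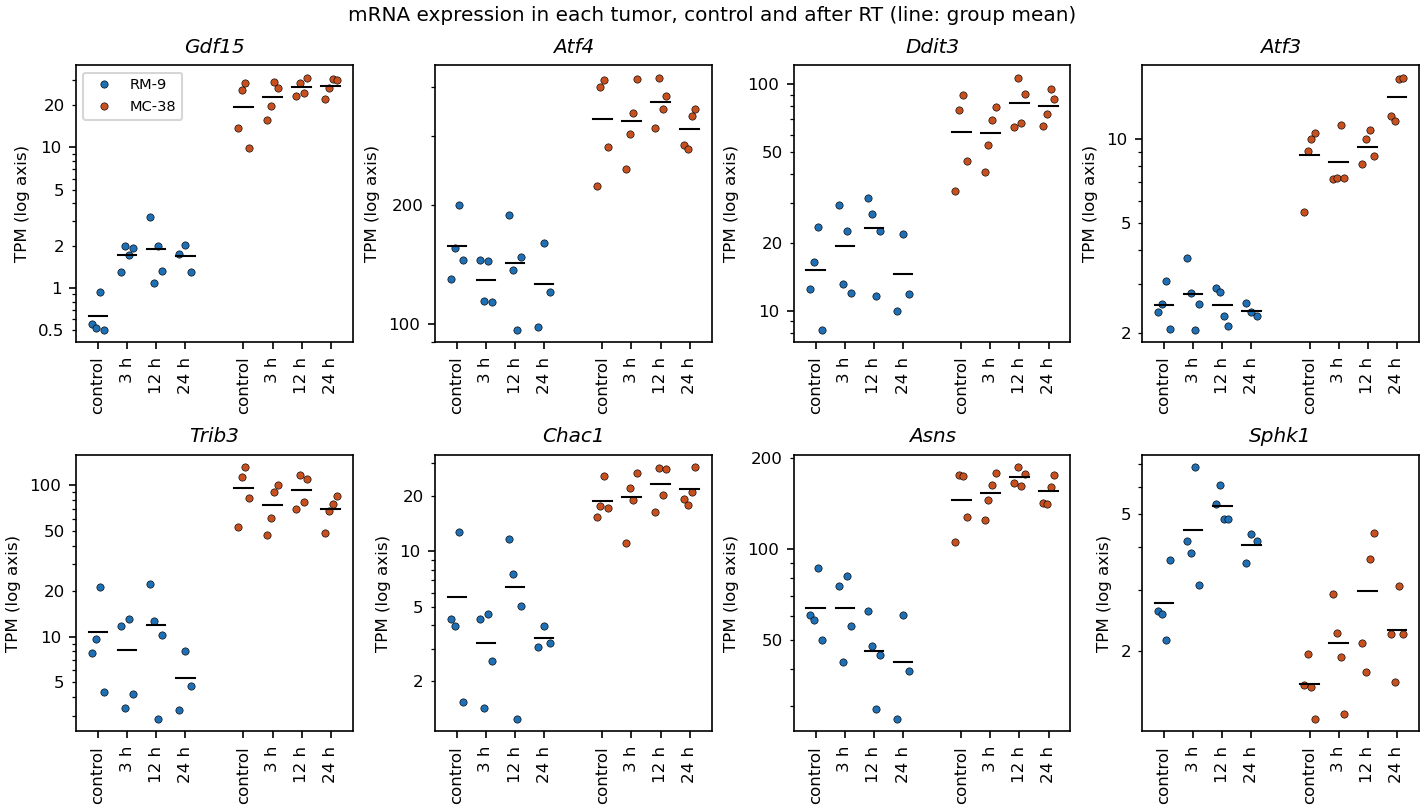
Level of each of the 8 genes in every tumor, in TPM on a log axis, by model (RM-9 blue, MC-38 orange) and group, with a line at each group mean. Gdf15 in RM-9 lies at 0.505 to 0.933 TPM in the 4 controls and at 1.08 to 3.18 TPM after RT, while in MC-38 it lies at 9.84 to 31.2 TPM over all groups.

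Sphk1 (chromosome 11, 116530925 to 116536674) had higher mean values after RT than in controls at every time in RM-9. RM-9 controls had 2.60, 2.56, 2.14 and 3.67 TPM, and tumors at 3 h had 4.16, 3.86, 6.83 and 3.10 TPM. The values were 5.35, 6.08, 4.81 and 4.83 TPM at 12 h and 3.59, 4.37 and 4.18 TPM at 24 h. The groups were separate at 12 h, whereas 1 tumor at 3 h and 1 at 24 h lay within the control range. The mean at 12 h was 5.27 ± 0.595 TPM (SD, n = 4) against 2.74 ± 0.654 (n = 4), a ratio of 1.92 and a log2 change of 0.85, given as a description. At the times that did not choose the members the log2 change was 0.59 at 3 h (0.19 to 0.99) with adjusted p = 0.125 by limma, and 0.50 at 24 h (0.07 to 0.94) with adjusted p = 0.999, so neither passed. In MC-38 the controls had 1.59, 1.95, 1.56 and 1.27 TPM and the tumors at 12 h had 2.10, 1.73, 3.70 and 4.41 TPM, a change of 0.67 (0.12 to 1.21) with adjusted p = 0.0569. Without the RT 12 h mouse of 1.73 TPM, the lowest of its group, the change passed (0.86, adjusted p = 0.0496). Over all single left-out mice it ran from 0.48 to 0.86. Read coverage of Sphk1 in MC-38 was thin, at 0.93 to 1.16 reads per base in the controls and 0.871 to 1.55 at 12 h. After median-ratio scaling the change at 12 h was 0.39 (adjusted p = 0.336 by limma), and the all-gene median on TPM was 0.33. At 3 h and 24 h in MC-38 the Sphk1 change on TPM was 0.28 (adjusted p = 0.505) and 0.40 (adjusted p = 0.304).

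The transcription factors of the pathway showed 1 change that passed the test. Atf4 (chromosome 15, 80255184 to 80257540) was the most abundant member. In RM-9 it had 130, 156, 200 and 145 TPM in controls and 145, 114, 144 and 114 TPM at 3 h, with 97.9 to 160 TPM at 24 h. In MC-38 it ranged from 225 to 417 TPM in controls and from 247 to 422 TPM after RT. The groups overlapped throughout, and the log2 change was -0.28 at 3 h (95% interval -0.69 to 0.14, adjusted p = 0.396) and -0.33 at 24 h (-0.78 to 0.12, adjusted p = 0.999) in RM-9, with -0.17 at 12 h as a description, and 0.01, 0.19 and -0.04 in MC-38 in order of time (adjusted p from 0.428 to 0.986 in limma).

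Ddit3 (chromosome 10, 127290774 to 127296288), the gene of the pro-apoptotic factor CHOP, spread widely among mice of the same group. RM-9 controls had 12.6, 16.4, 23.4 and 8.28 TPM, tumors at 3 h had 29.4, 13.1, 22.6 and 12.0 TPM, and tumors at 12 h had 31.5, 26.9, 11.7 and 22.5 TPM. The highest and the lowest irradiated tumor differed by more than the group means did. The log2 change was 0.34 at 3 h (95% interval -0.45 to 1.12, adjusted p = 0.597), 0.60 at 12 h as a description, and -0.04 at 24 h (adjusted p = 0.999). In MC-38 the controls had 33.9, 77.1, 89.8 and 45.8 TPM, and the change was 0.49 at 12 h (adjusted p = 0.165) and 0.47 at 24 h (adjusted p = 0.266). Without MC-38 control mouse 3, the highest control, the change at 12 h was 0.70 with adjusted p = 0.0454 by limma. Over all single left-out mice it ran from 0.24 to 0.70. After median-ratio scaling the change at 12 h was 0.14 (adjusted p = 0.648), and the all-gene median on TPM was 0.33.

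Atf3 (chromosome 1, 191170296 to 191218039), an early stress factor of the ATF/CREB family, rose in MC-38 at 24 h. The controls had 5.49, 9.10, 10.0 and 10.5 TPM and the tumors at 24 h had 12.1, 11.6, 16.4 and 16.7 TPM. All 4 irradiated tumors lay above all 4 controls. The mean was 14.2 ± 2.72 TPM (SD, n = 4) against 8.78 ± 2.27 (n = 4), a ratio of 1.62 and a log2 change of 0.68 (SE 0.20, 95% interval 0.25 to 1.11, adjusted p = 0.0354), beside an all-gene median of 0.22. After median-ratio scaling the change was 0.43 with adjusted p = 0.0699, so the call depended on the scaling, and it was also lost without control mouse 1 or 2 or without RT 24 h mouse 3 or 4. At 3 h and 12 h in MC-38 the Atf3 change was -0.07 (adjusted p = 0.848) and 0.12 (adjusted p = 0.631). In RM-9 Atf3 was lower in level, at 2.06 to 3.73 TPM over all 15 tumors, with changes of 0.11 at 3 h (adjusted p = 0.696), 0.01 at 12 h as a description and -0.04 at 24 h (adjusted p = 0.999).

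Trib3 (chromosome 2, 152337422 to 152344032), a pseudokinase that binds ATF4 and CHOP and feeds back on them, varied widely between mice. RM-9 controls had 7.75, 9.69, 21.2 and 4.29 TPM, tumors at 3 h had 11.8, 3.38, 13.1 and 4.19 TPM, and tumors at 12 h had 22.3, 12.6, 2.86 and 10.3 TPM. At 24 h the values were 3.26, 8.07 and 4.74 TPM. Values spread widely in the control, 3 h and 12 h groups, and 2 tumors at 3 h, 1 at 12 h and 1 at 24 h lay below every control. The log2 change of -0.38 at 3 h had a 95% interval of -1.61 to 0.85, while that of -0.81 at 24 h had one of -2.13 to 0.52 (adjusted p = 0.71 and 0.999), and at 12 h the change was 0.08 as a description. In MC-38 Trib3 had 52.8, 113, 132 and 83.0 TPM in controls and 48.8, 68.1, 75.7 and 84.8 TPM at 24 h. The change at 24 h was -0.40 (95% interval -1.01 to 0.21, adjusted p = 0.36) on TPM and -0.67 (-1.12 to -0.22, adjusted p = 0.0439) after median-ratio scaling, so by limma it was called lower under that scaling only. At 3 h these scalings gave -0.33 (adjusted p = 0.487) and -0.55 (adjusted p = 0.209), and at 12 h the change was 0.02 on TPM (adjusted p = 0.966) and -0.33 after scaling.

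Chac1 and Asns, enzymes of glutathione and asparagine metabolism, did not pass the test in either model. Chac1 (chromosome 2, 119351229 to 119354381), which breaks down glutathione, had 4.34, 3.97, 12.8 and 1.55 TPM in RM-9 controls, 4.31, 1.44, 4.61 and 2.58 TPM at 3 h, and 11.7, 7.55, 1.26 and 5.11 TPM at 12 h. Its changes were -0.50 at 3 h (95% interval -1.70 to 0.70) and -0.34 at 24 h (-1.63 to 0.96) in RM-9, with 0.18 at 12 h as a description. In MC-38 they were 0.02, 0.28 and 0.20 at the 3 times, and all 3 were below 0 after median-ratio scaling. Asns (chromosome 6, 7675169 to 7693254) had 60.4, 58.1, 86.3 and 49.7 TPM in RM-9 controls and 27.2, 60.3 and 39.2 TPM at 24 h. Of the 3 irradiated tumors 2 lay below every control and the other within the control range, and the change was -0.63 (95% interval -1.25 to -0.0041) with unadjusted p = 0.0487 and adjusted p = 0.999 in limma. In MC-38 Asns changed by 0.09, 0.27 and 0.12 at the 3 times, with 95% intervals that all include 0, and all 3 estimates were below 0 after median-ratio scaling. At 12 h in RM-9 it changed by -0.48, as a description.

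**Figure D2:**
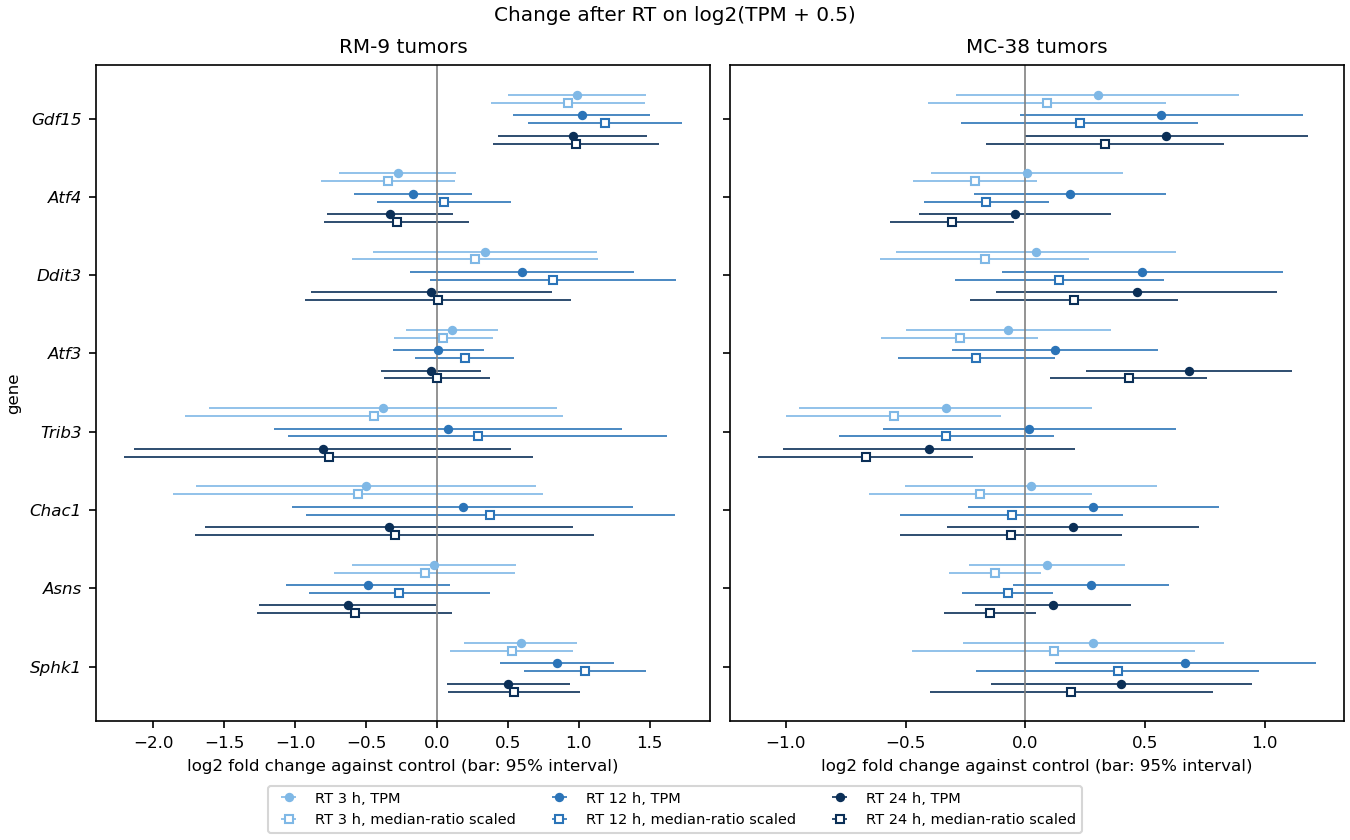
Log2 fold change of each member against control with its 95% interval, RM-9 at left and MC-38 at right, from light to dark for 3 h, 12 h and 24 h, on TPM (filled circles) and after median-ratio scaling (open squares). In RM-9 the Gdf15 changes, shown as a description, are 0.99, 1.02 and 0.96 on TPM and 0.92, 1.18 and 0.98 after scaling. The RM-9 intervals of Gdf15, and of every member at 12 h, take no account of the selection on these values and are not a test. In MC-38 Atf3 at 24 h changes by 0.68 on TPM and 0.43 after scaling.

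Counted over the members, 1 call was made in the 5 comparisons with a test. In RM-9 at 3 h limma called 0 of the 7 members tested, 1 of which (Sphk1) had an unadjusted p under 0.05, and over all genes it called 0.2% higher and 0.0285% lower. In RM-9 at 24 h it called 0 of 7, with Sphk1 and Asns under an unadjusted p of 0.05, beside 0% of all genes in either direction. In RM-9 at 12 h, where no member was tested, 0.0714% of genes were called higher and 8.3% lower. In MC-38 limma called 0 of 8 members at 3 h, none with an unadjusted p under 0.05, when 0.051% of all genes were called higher and 0.0127% lower. At 12 h in MC-38 it called 0 of 8, with Sphk1 alone under an unadjusted p of 0.05, although 28.5% of all genes were called higher and 2.59% lower. At 24 h it called 1 of 8, Atf3, when 13.2% of all genes were called higher and 0.548% lower.

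By the plain measure of every irradiated tumor lying above every control, Gdf15 alone of the 8 did so in RM-9 at 3 h and at 24 h, and Gdf15 and Sphk1 did so at 12 h. The share of all genes that did so in RM-9 was 9.88% at 3 h, 0.243% at 12 h and 2.01% at 24 h, and nothing is read from the members here because these values chose Gdf15. In MC-38 no member did so at 3 h or 12 h, against 7.2% and 34.5% of all genes, and Atf3 did so at 24 h, against 14.8%.

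Levels before RT did not overlap between the models for any of the 8 genes, as for most genes. In controls, Gdf15 was 31.1 times higher in MC-38 than in RM-9 by group means, Trib3 8.87 times, Ddit3 4.06 times, Atf3 3.48 times, Chac1 3.32 times, Asns 2.29 times and Atf4 2.10 times, and every MC-38 control lay above every RM-9 control for these 7 genes. Sphk1 went the other way, with every MC-38 control below every RM-9 control and a ratio of 0.581. Over all genes tested in both models, 50.9% had every MC-38 control above every RM-9 control and 9.09% had every one below, so this order is not particular to the members. The mitochondrially encoded share of TPM also differed between the models, at 47.8% to 50.5% in RM-9 controls and 25.7% to 40.6% in MC-38 controls, and no sample links the lines, so a difference of line and one of library set cannot be told apart. Whether the change after RT differed between the models was tested for the 7 members other than Gdf15 at 3 h and 24 h, and limma found 0 of 7 at each time, with none at an unadjusted p under 0.05 at 3 h and Atf3 and Asns at 24 h. Over all genes that test called 0% at 3 h and 1.81% at 24 h. The MC-38 change minus the RM-9 change at 24 h was 0.73 for Atf3 (95% interval 0.17 to 1.28, adjusted p = 0.123) and 0.74 for Asns (0.05 to 1.44, adjusted p = 0.195).

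Within groups, 5 of the members varied together from mouse to mouse. In RM-9 control mouse 3 had the highest control value of Trib3 (21.2 TPM), Chac1 (12.8 TPM), Ddit3 (23.4 TPM), Asns (86.3 TPM) and Atf4 (200 TPM), and RT 12 h mouse 3 had the lowest value of its group for all 5 (2.86, 1.26, 11.7, 29.5 and 96.6 TPM). Control mouse 3 also had the highest control value of Gdf15 (0.933 TPM). RT 12 h mouse 1 had the highest value of its group for all 5 genes and for Gdf15 (3.18 TPM). In RT 12 h mouse 3 Gdf15 was not the lowest of its group (1.98 TPM). Over the 15 RM-9 libraries, the deviations from group means on log2(TPM + 0.5) gave Pearson r from 0.79 (Atf4 with Chac1) to 0.96 (Trib3 with Ddit3) among these 5 genes. Of 14012 other genes, Trib3 had the highest r with Ddit3 and also the highest with Chac1 (0.95). The 95th percentile of r with all genes was 0.35 to 0.49 for these 5 genes, and after median-ratio scaling their r was 0.85 to 0.96 beside percentiles of 0.59 to 0.64. These correlations are descriptions over libraries that share their own scaling and tissue composition, and no p is given.

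In MC-38 these 5 genes had r from 0.72 to 0.98 over 16 libraries, but there most genes moved together, with a median r of 0.34 to 0.59 and a 95th percentile of 0.64 to 0.86. After median-ratio scaling the 5 genes had r from 0.59 to 0.91, beside percentiles of 0.47 to 0.59. Gdf15 stood apart from the 5 in RM-9, where its r with them was 0.11 to 0.31 on TPM and 0.24 to 0.46 after scaling, below its own 95th percentile of 0.37 and 0.55. In MC-38 its r was 0.61 (Chac1) to 0.87 (Ddit3), and 0.45 to 0.79 after scaling, against a 95th percentile of 0.72 and 0.52. The difference between the models was not tested. Gdf15 lay at 0.505 to 3.18 TPM in RM-9, near the added 0.5, against 9.84 to 31.2 TPM in MC-38. Its coverage in RM-9 controls was 0.885 to 1.62 reads per base. How far this low level lowers its r in RM-9 was not tested. Sphk1 had r from -0.19 to 0.26 with these 5 genes in the TPM of either model, and Atf3 had 0.27 to 0.525 in RM-9 and 0.35 to 0.62 in MC-38. After median-ratio scaling the r of Atf3 was 0.40 to 0.62 in RM-9 but 0.04 to 0.22 in MC-38, and that of Sphk1 was 0.17 to 0.38 in RM-9 and -0.39 to -0.08 in MC-38.

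**Figure D3:**
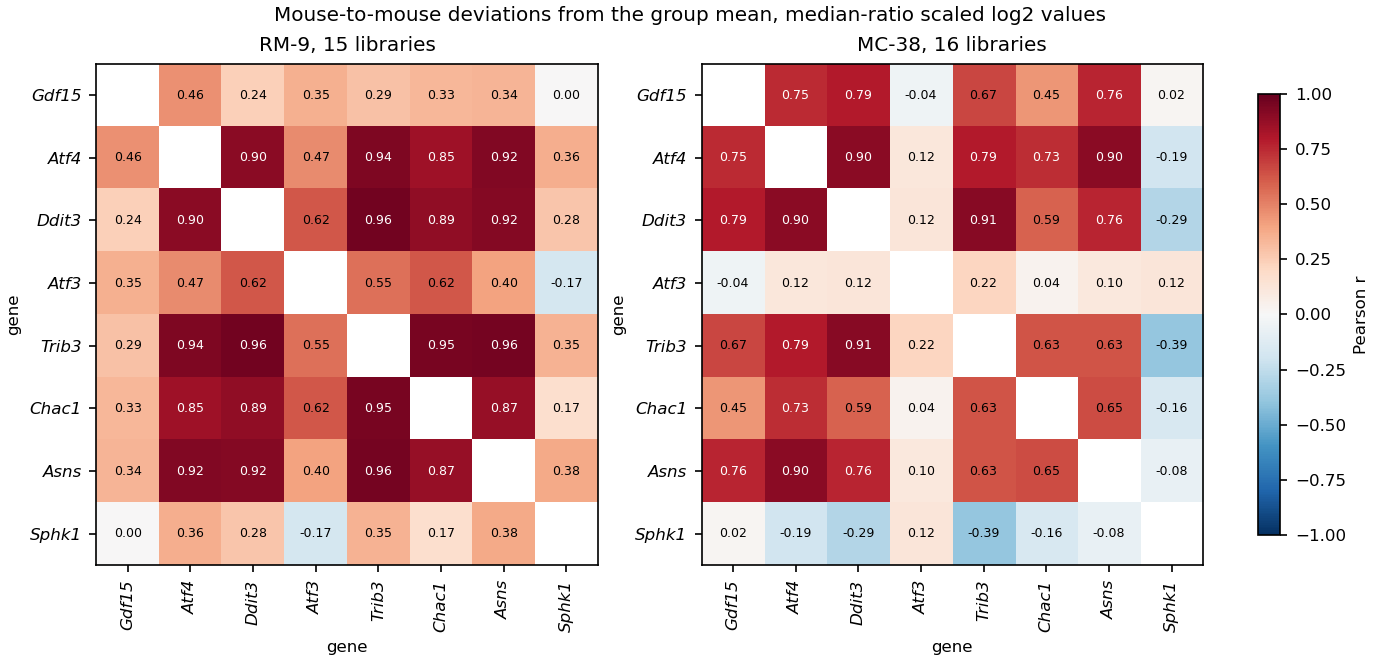
Pearson r between members over libraries, from deviations from group means on log2 values after median-ratio scaling, for RM-9 (15 libraries, left) and MC-38 (16 libraries, right), with red for positive and blue for negative r. Atf4, Ddit3, Trib3, Chac1 and Asns form a block (0.85 to 0.96 in RM-9 and 0.59 to 0.91 in MC-38), and the r of Gdf15 with them is 0.24 to 0.46 in RM-9 and 0.45 to 0.79 in MC-38.

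**Figure D4:**
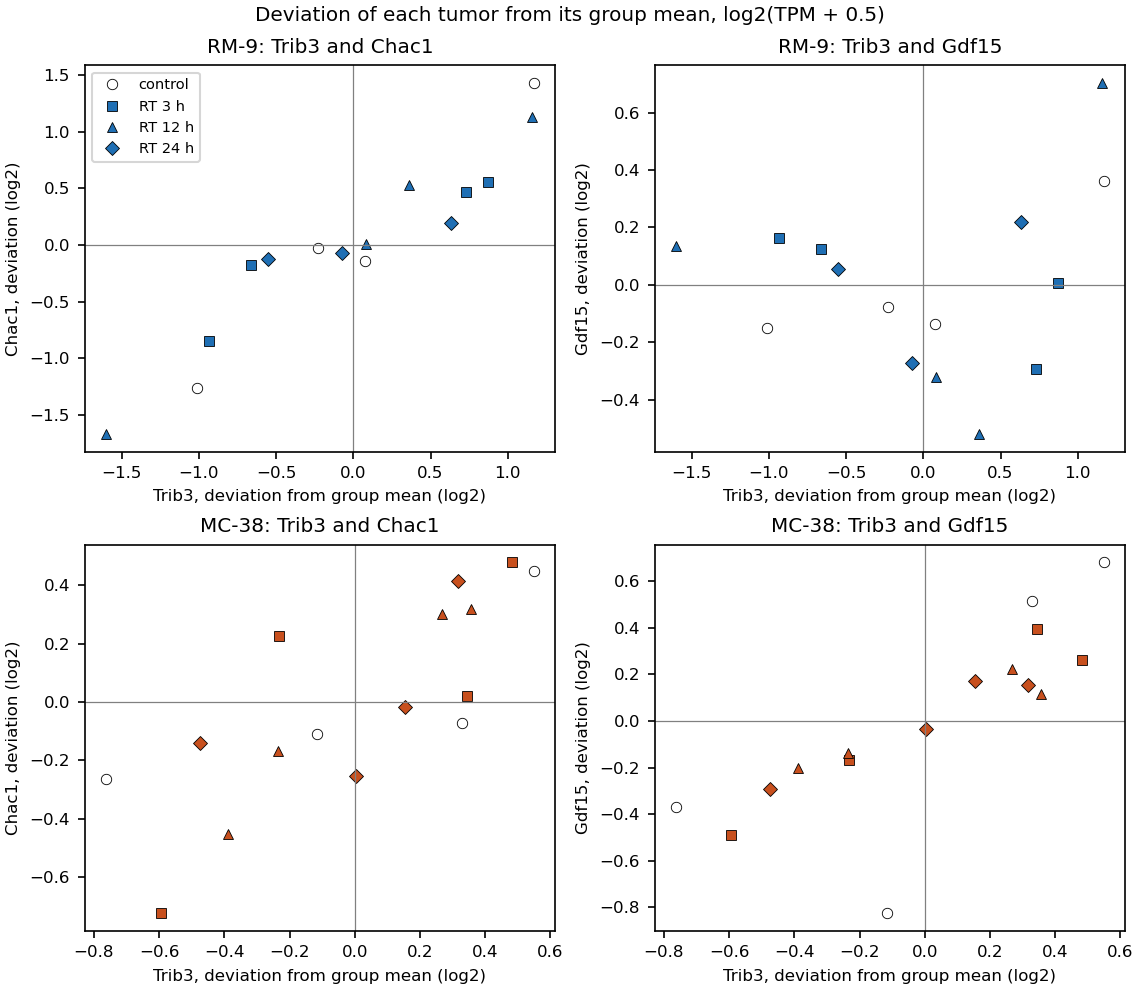
Deviation of Chac1 (left) and Gdf15 (right) from the group mean against that of Trib3, on log2(TPM + 0.5), each point 1 tumor and each symbol a group, RM-9 above and MC-38 below. In RM-9 Chac1 follows Trib3 closely (r of 0.95) and Gdf15, at only 0.505 to 3.18 TPM there, is scattered (0.18). In MC-38, with Gdf15 at 9.84 to 31.2 TPM, the r values are 0.78 and 0.81.

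Markers of other cells also varied between libraries. The sum of 8 skeletal muscle markers ran from 2.83 to 2391 TPM in RM-9 and from 5.76 to 11961 TPM in MC-38, within groups as well as between them. The sum of 8 macrophage markers was 189 to 370 TPM in RM-9 at 12 h against 381 to 597 in controls, and 299 to 710 in MC-38 at 12 h against 821 to 1311. At 12 h 8.3% of all genes were called lower in RM-9 and 2.59% in MC-38. Macrophage markers called lower at 12 h were 5 of 8 in each model. Among them were Mrc1, Csf1r and C1qa in RM-9 (log2 changes of -0.56, -0.92 and -0.94) and C1qb, Csf1r and C1qc in MC-38 (-1.56, -1.32 and -1.31). T cell markers called lower at 12 h were 3 of 5 in RM-9 and 4 of 8 in MC-38. After median-ratio scaling 0 of 8 macrophage and 0 of 5 T cell markers were called in RM-9 at 12 h, with medians of -0.60 and -0.58 beside 0.01 for all genes, whereas 6 of 8 and 8 of 8 were lower in MC-38. The sum of 8 neutrophil markers was 43.2 to 151 TPM in MC-38 at 24 h against 24.5 to 36.3 in controls, and Ly6g was at 0 in both of these groups. Of 7 neutrophil markers tested, 1 was called higher in MC-38 at 24 h, Mmp9 (1.70, adjusted p = 0.024 by limma), when 13.2% of all genes were. Mmp9 was at 49.9 ± 50.3 TPM (SD, n = 4) against 11.4 ± 2.89 (n = 4). After median-ratio scaling 0 of 7 neutrophil markers were called. The part of these cells in the members' values was not tested.

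The genes whose levels ran most like Gdf15 differed between the models. Over the 15 RM-9 libraries and 14012 other genes, the 5 highest r on log2(TPM + 0.5) were those of Dcxr (0.77), Inhbb (0.76), Rrnad1 (0.70), Cdkn1a (0.69) and Rhod (0.68). Cdkn1a encodes the cell cycle inhibitor p21, Dcxr an enzyme of sugar metabolism and Inhbb a subunit of activin B. Over the 16 MC-38 libraries and 15697 other genes, they were Slc25a33, Soat2, Fam110b (0.91 each), Slc1a5 and 1700013F07Rik (0.90 each). Slc1a5 encodes a glutamine transporter and Soat2 a cholesterol-esterifying enzyme. These r include the group differences, and the groups and scaling are shared by all genes.

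Around the members, the upstream part of the pathway moved little in RM-9. Of 17 genes of the eIF2 kinases and eIF2 machinery, limma called 0 at 3 h, 1 lower at 12 h (Eif2b4, a subunit of the eIF2 exchange factor, -0.36, adjusted p = 0.0418) and 0 at 24 h in RM-9. In MC-38 it called 0 at 3 h, 5 higher at 12 h and 2 higher at 24 h, when 28.5% and 13.2% of all genes were called higher at 12 h and 24 h. After median-ratio scaling 0 of the 17 were called in RM-9 at 12 h, where 8.3% of all genes were called lower on TPM. The MC-38 calls included Impact, a regulator of the kinase GCN2 (0.71 at 12 h), Eif2ak3, which encodes the ER stress kinase PERK (0.54 at 12 h), and Eif2ak2, which encodes the RNA-sensing kinase PKR (0.56 at 12 h and 0.77 at 24 h). Dnajc3, an ER co-chaperone known to inhibit PERK and PKR, was higher at 24 h (0.47). The list median in MC-38 was 0.27 at 12 h and 0.23 at 24 h, close to the all-gene medians of 0.33 and 0.22, and after median-ratio scaling 1 was higher and 2 were lower at 12 h.

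Of 13 partners and feedback genes of ATF4 and CHOP, 1 was called higher in RM-9 at 3 h and 0 at 12 h and 24 h. It was Sesn2, a stress-induced inhibitor of growth signaling that is also a p53 target (0.92, SE 0.16, adjusted p = 0.0331 by limma). Over all genes, 0.2% were called higher in RM-9 at 3 h, and 28.5% in MC-38 at 12 h and 13.2% at 24 h. Of the 13 in MC-38, 0 were called at 3 h, 5 higher at 12 h and 1 higher at 24 h. The named ones were Jdp2, a partner of AP-1 and ATF proteins (0.65 at 12 h and 0.64 at 24 h), Tcf7l2, a Wnt pathway factor (0.57 at 12 h), and Tnfrsf10b, a death receptor gene induced by CHOP and p53 (0.79 at 12 h). The MC-38 list median was 0.38 beside 0.33 for all genes at 12 h and 0.36 beside 0.22 at 24 h. After median-ratio scaling MC-38 had 1 higher at 12 h, and 1 higher and 2 lower at 24 h. In RM-9 at 3 h that scaling called 2 higher, Sesn2 (0.85) and Tnfrsf10b (0.37, adjusted p = 0.032 by limma).

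ATF4 targets of amino acid supply leaned lower in RM-9 at 24 h without any gene passing. All 19 tested of 25 had estimates below 0, with a list median of -0.46 beside an all-gene median of -0.04 and 0 called, and this comparison had 681 genes in all at an unadjusted p under 0.05. The 19 genes were measured in the same mice, so their common sign is not 19 separate results. Median-ratio scaling gave a list median of -0.41. The value rested in part on single mice, with medians of -0.30 without control mouse 3 (17 of 19 below 0) and -0.24 without RT 24 h mouse 1. At 12 h in RM-9 the median was -0.33 beside -0.19 and 1 gene was lower (Phgdh, the entry enzyme of serine synthesis, -0.49, adjusted p = 0.0246), with 0 after median-ratio scaling, and at 3 h 0 were called. In MC-38, 2 of 22 were higher at 12 h, the transporter genes Slc38a2 (0.56, adjusted p = 0.027) and Slc1a5 (0.68, adjusted p = 0.0427), and 0 at 3 h and 24 h, while median-ratio scaling gave 0 at 12 h and 1 lower at 24 h. On TPM 28.5% of all genes were called higher in MC-38 at 12 h, and 8.3% were called lower in RM-9 at 12 h.

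The 20 cytosolic aminoacyl-tRNA synthetases, which charge tRNAs with amino acids, were lower in 9 cases in RM-9 at 12 h and higher in 7 cases in MC-38 at 12 h and 4 at 24 h. Over all genes, 8.3% were called lower in RM-9 at 12 h. In MC-38, 28.5% of all genes were called higher at 12 h and 13.2% at 24 h. No synthetase was called in either model at 3 h or in RM-9 at 24 h. The RM-9 calls were led by Hars (-0.38), Vars (-0.58) and Lars (-0.52), with a list median of -0.38 beside -0.19, and none was called after median-ratio scaling. The MC-38 calls were led by Vars (0.61), Iars (0.45) and Qars (0.38) at 12 h and by Kars (0.47), Hars (0.43) and Eprs (0.52) at 24 h. The MC-38 list median was 0.34 beside 0.33 for all genes at 12 h and 0.31 beside 0.22 at 24 h. After median-ratio scaling MC-38 had 0 higher and 1 lower at 12 h, and 1 in each direction at 24 h.

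Many ER chaperones and genes of the unfolded protein response were called higher in MC-38. Limma called 13 of 21 higher at 12 h and 13 of 21 at 24 h, when 28.5% and 13.2% of all genes were, with 0 at 3 h and 0 at every time in RM-9. The leading genes at 24 h were Calr, the calcium-binding chaperone calreticulin (0.79, adjusted p = 0.000314), and the disulfide isomerase genes Pdia4 (0.77, adjusted p = 0.00105) and Pdia6 (0.59, adjusted p = 0.00193). At 12 h Pdia4 (0.60), Calr (0.49) and Hyou1, a chaperone of the HSP70 family (0.58), led. The list median at 24 h was 0.51 beside 0.22 for all genes, and after median-ratio scaling 11 were higher and 1 lower with a median of 0.24. At 12 h the list median was 0.39 beside 0.33, and after that scaling it was 0.036 with 3 called higher.

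Some targets of p53, the transcription factor activated by DNA damage, were called higher at 3 h in both models. In RM-9, 9 of 27 were called higher at 3 h with a list median of 0.58 beside 0.06, led by Trp53inp1 (1.72, adjusted p = 0.00163), Cdkn1a (0.96, adjusted p = 0.0106) and Mdm2 (1.27, adjusted p = 0.015), which encodes the p53 inhibitor. At 12 h, Dcxr (0.88), Cdkn1a (0.52) and Trp53inp1 (0.68) were among 4 called higher and Trp53i13 was called lower (-0.40), and at 24 h 0 were called. In MC-38, 3 of 26 were higher at 3 h, Trp53inp1 (1.44), Mdm2 (1.11) and Cdkn1a (0.80), with a list median of 0.42 beside 0.19. In MC-38 10 of 26 were called higher at 12 h, led by Mdm2 (0.96), Trp53inp1 (1.01) and Polk (0.89), and 6 at 24 h, led by Cdkn1a (0.73), Mdm2 (0.74) and Fas (0.78). For comparison, the RM-9 share of all genes called higher was 0.2% (3 h) and 0.0714% (12 h), with 8.3% called lower (12 h). The MC-38 share of all genes called higher was 0.051% (3 h) and 13.2% (24 h). The list median in MC-38 at 12 h was 0.27, below the 0.33 of all genes, of which 28.5% were called higher, and -0.023 after median-ratio scaling. Median-ratio scaling gave 13 higher in RM-9 at 3 h and 3 in MC-38 at 3 h, and in MC-38 4 higher and 2 lower at 12 h and 4 higher and 3 lower at 24 h.

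The neighbors of Sphk1, Gdf15 and Chac1 gave few calls. Beside them, 28.5% of all genes were called higher in MC-38 at 12 h and 13.2% at 24 h. Of the sphingosine 1-phosphate genes, 0 of 14 were called in RM-9 at any time, and in MC-38 0 of 15 were called at 3 h, 3 higher at 12 h (Asah2, Sgpp1 and Cers6, at 0.66, 0.43 and 0.51) and 2 higher at 24 h (Asah2, 0.69, and S1pr1, a receptor for the lipid, 0.57). After median-ratio scaling 0 were called at 12 h and 1 was higher and 2 were lower at 24 h. The Gdf15 receptor gene Gfral was at 0 in 14 of 15 RM-9 and in all 16 MC-38 libraries, and its partner Ret did not exceed 0.258 TPM. Furin, which encodes a protease that matures GDF15, and Mmp14, a gene of a membrane protease, were called higher in MC-38 at 12 h (0.69 and 0.43) and at 24 h (0.64 and 0.54), and 0 of 4 genes of this list were called in RM-9 or in MC-38 at 3 h. After median-ratio scaling Furin was called (0.35 at 12 h and 0.38 at 24 h) and Mmp14 was not. Of the glutathione genes, Chac2, a relative of Chac1, was higher (0.51) and Gsr, glutathione reductase, lower (-0.47) in RM-9 at 12 h, with 0 of 6 called at 3 h and 24 h and 0 at 12 h after median-ratio scaling. In MC-38 4 of 8 were higher at 12 h, among them Gsr (0.51), Ggt1 (1.46) and Chac2 (0.47), and 2 at 24 h, Gsr (0.52) and Chac2 (0.62), with 0 at 3 h. Median-ratio scaling gave 1 higher at 12 h and 2 higher and 1 lower at 24 h.

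**Figure D5:**
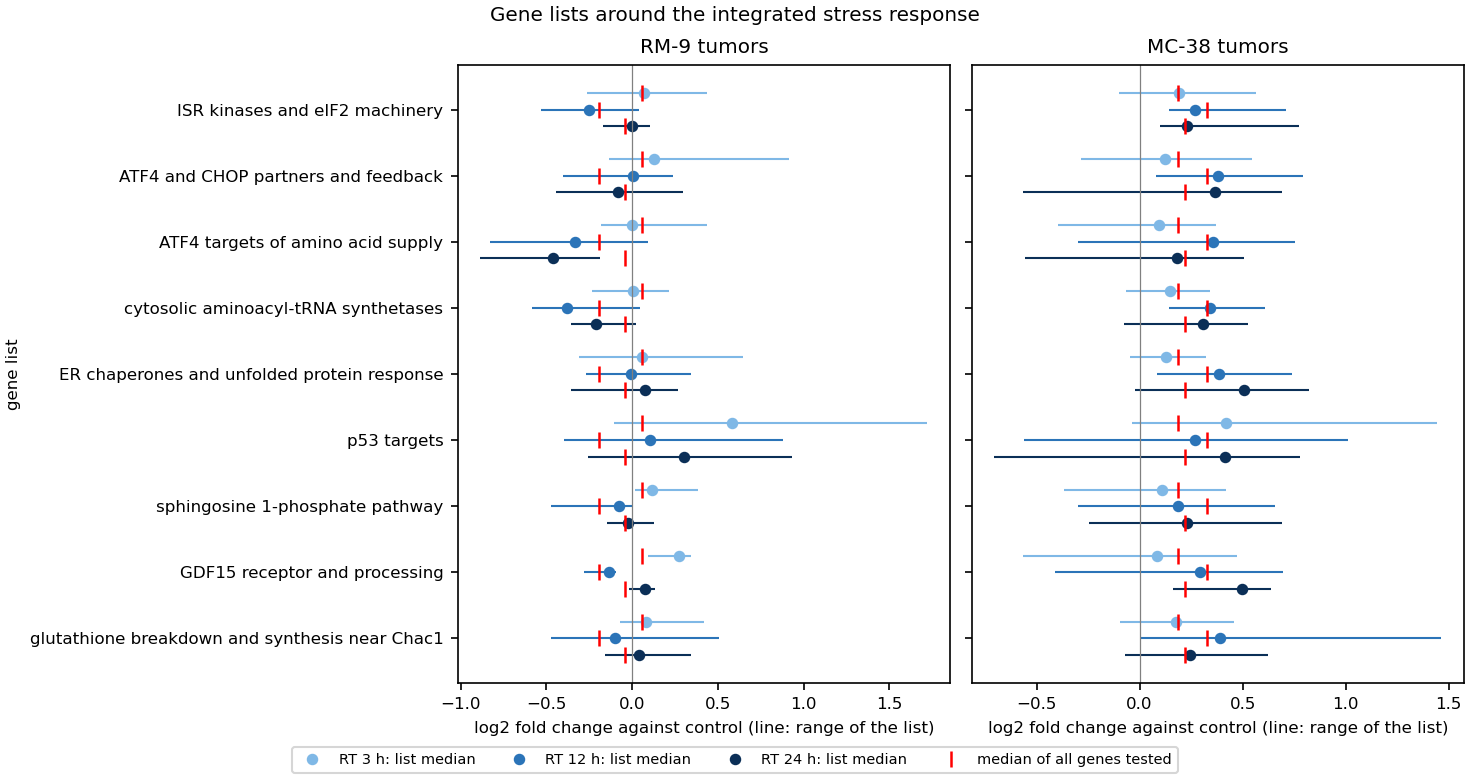
Median log2 fold change (point) and range (line) of 9 gene lists at the 3 times after RT (3 h lightest), RM-9 at left and MC-38 at right, with a red mark at the median of all genes tested. The p53 targets stand above the red mark at 3 h in RM-9 (0.58 against 0.06), and the amino acid supply genes stand below it at 24 h in RM-9 (-0.46 against -0.04).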

How the data were processed

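RNA of whole RM-9 or MC-38 grafts was sequenced as stranded mRNA libraries with 75-base single-end reads. The authors deposited 1 table per mouse with coverage, FPKM and TPM for each gene, and TPM was analysed. The submitters' processing notes name bcl2fastq 2.17 and the build GRCm39, but the coordinates of the members in the files match GRCm38, and the aligner is not given in the sources used here. Depth was taken from the most frequent ratio of deposited coverage to FPKM. Members and lists were chosen with earlier results of these data known. Rows of 1 gene identifier were summed (7 to 16 identifiers per library had several).

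Genes with a mean of at least 0.5 TPM in a model (14013 in RM-9, 15698 in MC-38) entered limma 3.58.1 in R 4.3.3: log2(TPM + 0.5), 1 fit with the 4 groups of a model, an intensity-dependent variance prior, and Benjamini-Hochberg adjustment over all genes with a threshold of 0.05. The difference between models used 1 fit of all 8 groups (15358 genes). Other pseudocounts, filters, scalings, samples in the fit and left-out mice were tried. Named genes were the members, up to 3 called in each direction per list and comparison by smallest p, and the 5 genes most like Gdf15. Same-numbered mice were not paired. Scripts were tested on simulated data.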

Additional observations from a re-analysis of the deposited data

Results flagged for a closer look

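Among 56 groups of 4 mice and 1 gene each, 2 held a mouse whose gap to the nearest other exceeded Dixon's 95% limit for 4 values. Chance flags about 1 in 20 groups, so no more were found than chance gives. Gdf15 in RM-9 control mouse 3 was 0.933 TPM, far above the other 3 controls, with a gap of 0.882 of the range. Atf3 in MC-38 RT 3 h mouse 3 was 11.3 TPM, far above the other 3 mice of the group, with a gap of 0.985 of the range.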

How the results depend on the processing

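Adding the mouse number as a replicate block gave 13 genes past the threshold in RM-9 at 3 h in place of 32, 5 in MC-38 at 3 h in place of 10, and changed no call of a member. The numbers did not pair the mice: deviations of same-numbered mice correlated at -0.389 to 0.317 in RM-9 (median -0.061, 5 of 21 pairs over 0.1) and at -0.483 to 0.554 in MC-38 (median -0.073, 7 of 24).

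Counts over all genes moved with the scaling and the fit, and the cause was not tested. From 32, 1173, 0, 10, 4875 and 2159 genes (in order of time, first RM-9, then MC-38), median-ratio scaling gave 383 (225 higher, 158 lower), 19 (13 and 6), 0, 104 (48 and 56), 2534 (993 and 1541) and 2505 (1226 and 1279). TPM rescaled without mitochondrially encoded genes gave 184 (151 and 33), 79 (10 and 69) and 0 in RM-9, and 142 (118 and 24), 3886 (3199 and 687) and 2615 (2165 and 450) in MC-38. No filter on low values gave 8, 571 and 2 in RM-9 and 2965 in MC-38 at 12 h, and a mean TPM of at least 5 gave 6 in MC-38 at 3 h. Fits of only the groups compared, with fewer samples for the spread, gave 280 in RM-9 at 12 h and 0 at 3 h, and for MC-38 they gave 2, 1340 and 318. Leaving out 1 mouse gave 1 to 184, 0 to 1573 and 0 to 1 in RM-9 and 1 to 425, 1443 to 7292 and 1070 to 3528 in MC-38.

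The 1 member called in MC-38 at 24 h, Atf3, became 0 with no filter, with only the groups compared (0.68 in each) and after median-ratio scaling (0.43), which called Trib3 lower (-0.67). Leaving out 1 mouse gave 0 to 2 members at 12 h and 0 to 2 at 24 h in MC-38. The Gdf15 change in RM-9 was 1.35 at 3 h and 1.31 at 24 h with a pseudocount of 0.1, and 0.75 at 3 h with a pseudocount of 1. Leaving out each RM-9 mouse at 24 h, an alternative chosen after seeing the data, gave medians of -0.62 to -0.24 for the amino acid supply genes.

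None of the changes that turned direction was called. In RM-9 at 12 h, given as a description, Atf4 went from -0.17 to 0.051 under median-ratio scaling, and leaving out 1 mouse gave Chac1 -0.24 to 0.74, Trib3 -0.31 to 0.61, Atf3 -0.065 to 0.095 and Atf4 -0.32 to 0.003. Elsewhere under median-ratio scaling these were Ddit3 in RM-9 at 24 h (0.0061), then in MC-38 Ddit3 (-0.17), Chac1 (-0.19), Asns (-0.13) and Atf4 (-0.21) at 3 h, Atf3 (-0.21), Chac1 (-0.057), Asns (-0.074), Trib3 (-0.33) and Atf4 (-0.16) at 12 h, Chac1 (-0.059) and Asns (-0.15) at 24 h, and in the difference between models at 3 h Asns (-0.020) and Trib3 (-0.077). Without mitochondrially encoded genes they were, in MC-38, Ddit3 (-0.040), Chac1 (-0.061) and Atf4 (-0.079) at 3 h and Atf3 (-0.0054) and Trib3 (-0.12) at 12 h, and in the difference between models Trib3 (-0.024). Leaving out 1 mouse turned others, with these ranges. In RM-9 at 3 h these were Atf3 -0.025 to 0.22, Asns -0.15 to 0.16, Trib3 -0.72 to 0.009. In RM-9 at 24 h these were Ddit3 -0.36 to 0.20, Atf3 -0.12 to 0.043, Chac1 -0.76 to 0.14. In MC-38 at 3 h these were Ddit3 -0.20 to 0.26, Atf3 -0.27 to 0.026, Chac1 -0.14 to 0.27, Asns -0.053 to 0.19, Atf4 -0.16 to 0.14. In MC-38 at 12 h these were Atf3 -0.074 to 0.22, Trib3 -0.24 to 0.20. In MC-38 at 24 h these were Asns -0.027 to 0.22, Atf4 -0.21 to 0.085. For the difference between the models at 3 h these were Asns -0.071 to 0.24, Trib3 -0.34 to 0.39. For the difference between the models at 24 h these were Sphk1 -0.23 to 0.022.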
